A study of Homo sapiens with 3 samples.

Results

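The sites described here are intronic polyadenylation sites (pAs) that lay more than 50 kb upstream of the most distal pA in the 3ʹ-most exon of the same gene and strand. The rule that takes them uses position alone, but every one of them had a read in at least 1 of the 3 libraries compared here. Of 31565 pAs in 9431 genes, 11989 were intronic, and 9772 of these were in 4342 genes that also had 3ʹ-most-exon pAs. The distance rule took 2835 of them, in 1259 genes, and they are called far-upstream intronic pAs below. The intronic pAs at 10–50 kb (4343 in 2499 genes) and at up to 10 kb (2594 in 1756 genes) served for comparison.

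The study asked how alternative cleavage and polyadenylation (APA) changes when cells respond to DNA damage. RKO, an established human colon carcinoma cell line, was used without UV irradiation (0 h) and after recovery for 0.5 h or 2 h from UVC irradiation, and nuclear RNA was sequenced by 3ʹREADS, a method that reads where a polyadenylated RNA ends. All groups were of the same cell line with no transgene, and each time point had 1 library, so no difference below has a replicate check. Each window is named by the libraries it compares, such as 0.5–2 h, and every test compares the reads of 2 libraries, not 2 conditions.

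A transcript that is cut and polyadenylated in an intron ends early and lacks the exons downstream of that intron. Long genes hold many potential sites of this kind, and U1 snRNP, best known for recognising 5ʹ splice sites, also holds cleavage and polyadenylation at such sites in check. A transcript that ends at a pA far upstream therefore lacks the exons between that pA and the gene end, however much of the gene lies before it. Cutting at the 3ʹ-most exon gives the full-length mRNA. The 2 kinds of pA compete for the same transcripts, so the share of a pA was taken as its reads over its reads plus all 3ʹ-most-exon reads of the gene.

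The libraries held 433261 reads at 0 h, 501838 at 0.5 h and 438040 at 2 h, so that 1 read stood for 2.31, 1.99 and 2.28 RPM, the unit that scales reads to a common library size. A count of 0 allowed up to 3 reads, or 6.92, 5.98 and 6.85 RPM. Of 13 colon epithelial marker genes only EPCAM, KRT8 and KRT18 had reads, with a sum between 25.9 and 68.5 RPM, and KRT19, CDX2, CDH1 and VIL1 were at 0 in every library. Of 10 fibroblast genes, ACTA2 alone had reads (9.13 RPM at 2 h, 0 before). Of 8 blood genes, HBA1 had 2.28 RPM at 2 h, and CD68 had 4702, 5159 and 4486 RPM while PTPRC, CD14 and LYZ were at 0. No marker gene held a far-upstream intronic pA, and the part of other cells in the results was not tested.

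The far-upstream intronic pAs were many and mostly thin. A single read was all that 1278 of them (45.1%) had over the 3 libraries, 1404 had 2–9 reads, and the 153 with 10 or more reads held 45.5% of all reads of the class. The median distance to the gene end was 98.8 kb (quartiles 69.4 and 152 kb), and the largest was 1412 kb. They lay on both strands (1321 on plus and 1514 on minus), and 10 of them were listed under more than 1 gene. In 631 genes there was 1 such pA, and 121 genes had 5 or more, with 932 pAs together. Neighbouring far-upstream pAs of a gene were a median of 8.31 kb apart, and 307 of 1576 neighbours were within 1 kb. The genes had few full-length reads, with a median of 4, 4 and 3 3ʹ-most-exon reads at 0, 0.5 and 2 h.

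At the border, the nearest pAs inside the class were in CHIC2 (0, 0 and 5 reads at 0, 0.5 and 2 h), NOTCH1 (1, 0 and 0 reads) and CSNK1A1 (0, 0 and 4 reads). Those just outside it were in DHX29 (0, 0 and 2 reads), NTSR1 (0, 1 and 0 reads) and SYNJ2 (1, 0 and 0 reads). Among the genes whose APA the study examined singly by PCR, only NOTCH1, a receptor gene, held a far-upstream intronic pA. It had 127, 70 and 27 3ʹ-most-exon reads. Other genes named in the text of the study were not looked up.

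As a class, the far-upstream intronic pAs held 2154 reads at 0 h, 2998 at 0.5 h and 5657 at 2 h. This was 4972, 5974 and 12914 RPM, and as a share of the reads listed at all pAs it was 0.497% (95% Clopper-Pearson interval 0.477–0.519%), 0.598% (0.577–0.619%) and 1.29% (1.26–1.33%). Most of the increase came in the 0.5–2 h window, where the RPM ratio was 2.16 (95% interval 2.07–2.26), against 1.20 (1.14–1.27) in the 0–0.5 h window. Over the whole span from 0 to 2 h the ratio was 2.60 (2.47–2.73). These intervals, like all below, hold counting error alone, as PCR copies of a molecule were not told apart. In bulk RNA, fewer cells of a type and less RNA per cell cannot be told apart. Without the 10 most abundant far-upstream pAs, the ratios were 1.22, 2.33 and 2.85.

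**Figure D1:**
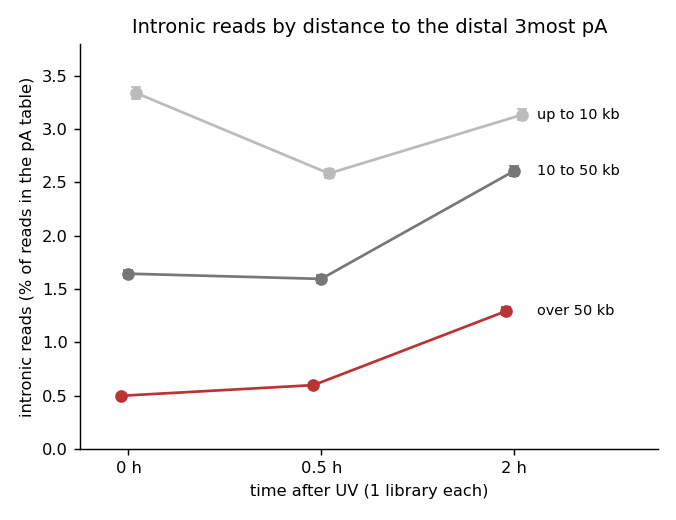
Reads at intronic pAs as a percentage of the reads listed at all pAs (y axis) in the 0, 0.5 and 2 h libraries (x axis), for pAs over 50 kb, 10 to 50 kb and up to 10 kb upstream of the distal 3ʹ-most-exon pA. Points are single libraries and bars are 95% Clopper-Pearson intervals. The line of the pAs over 50 kb goes from 0.497% to 0.598% and 1.29%, and that of the pAs up to 10 kb is lower at 0.5 h than at 0 h.

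More sites, as well as more reads, were seen at 2 h. Reads were found at 740 far-upstream pAs at 0 h (26.1%), 860 at 0.5 h (30.3%) and 1825 at 2 h (64.4%). With at least 2 reads required, the numbers were 335, 525 and 1005. Each pA was listed only if some library had a read for it, so these counts depend in part on how the list arose. The 2 h library was the only one with reads for 1467 of the 2835 pAs (51.7%), and 732 of these rested on 1 read. This was not particular to the class, since 49.3% of the pAs at 10–50 kb and 42.0% of those at up to 10 kb were also read only at 2 h, and reads were found at 63.7% and 59.4% of them at 2 h. In comparison, 429 were read only at 0 h and 515 only at 0.5 h. The 166 pAs read in all 3 libraries carried much of the class, with 1176, 1509 and 1847 reads.

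The same held for genes. Far-upstream reads were found in 474 genes at 0 h, 547 at 0.5 h and 994 at 2 h. Between 0.5 and 2 h the far-upstream RPM was higher in 879 and lower in 289 of the 1259 genes. Between 0 and 0.5 h it was higher in 421 and lower in 344. A gene was likewise listed only if some library had a far-upstream read. Genes with 0 such reads numbered 712 at 0.5 h and 265 at 2 h. From a count of 0, a gene could not be lower in the later library, so these directions depend in part on how the list arose. An increasing part of the far-upstream reads came from genes whose 3ʹ-most-exon pAs had 0 reads in the same library. This part was 8.64% of far-upstream reads at 0 h (66 genes), 22.3% at 0.5 h (124 genes) and 31.0% at 2 h (271 genes). The gene BANP alone had 98 of these 670 reads at 0.5 h and 297 of 1752 at 2 h. The same part was not counted for nearer intronic pAs.

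Intronic pAs closer to the gene end rose less between 0.5 and 2 h, and did not rise between 0 and 0.5 h. The summed RPM of pAs at 10–50 kb had ratios of 0.970 (0.940–1.00) between 0 and 0.5 h and 1.63 (1.59–1.68) between 0.5 and 2 h. pAs at up to 10 kb had ratios of 0.774 (0.756–0.792) and 1.21 (1.18–1.24). The far-upstream pAs differed from both in every window. Between 0.5 and 2 h the odds ratio of far-upstream against 10–50 kb reads was 1.32 (1.26–1.40, adjusted p = 1.31e-25, Fisher's exact test over 6 comparisons), and against reads at up to 10 kb it was 1.78 (1.70–1.88, adjusted p = 4.44e-115, Fisher's exact test). For 0–0.5 h the odds ratios were 1.24 (1.16–1.32, adjusted p = 4.85e-11, Fisher's exact test) and 1.55 (1.46–1.65, adjusted p = 7.60e-47, Fisher's exact test). Without the 10 most abundant pAs of each class the 0–0.5 h values were 1.11 and 1.30, and the 0.5–2 h values 1.20 and 1.51. The classes also differed in how many reads lay at pAs read in all 3 libraries. At 0.5 h such pAs held 1509 of 2998 far-upstream reads, 5741 of 8000 at 10–50 kb and 11562 of 12965 at up to 10 kb. From 0.5 to 2 h their reads went from 1509 to 1847, from 5741 to 5949 and from 11562 to 11015. The classes were not compared without these pAs. Each p-value takes reads as independent.

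Within the class, distance made less difference. Far-upstream pAs at 50–100, 100–200, 200–500 and over 500 kb had RPM ratios of 2.14 (2.01–2.29), 2.10 (1.96–2.26), 2.38 (2.09–2.72) and 2.60 (1.78–3.85) in the 0.5–2 h window. The 100–200 kb pAs against the 50–100 kb pAs had an odds ratio of 0.981 (0.891–1.08, p = 0.697, Fisher's exact test), and the pAs over 200 kb had 1.12 (0.975–1.29, p = 0.107, Fisher's exact test). In the first 0.5 h, however, the pAs over 200 kb went from 205 to 375 reads and those at 50–100 kb from 1098 to 1432, an odds ratio of 1.40 (1.16–1.70, p = 3.88e-04, Fisher's exact test). From 0 to 2 h this odds ratio was 1.57 (1.33–1.87, p = 7.70e-08, Fisher's exact test).

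**Figure D2:**
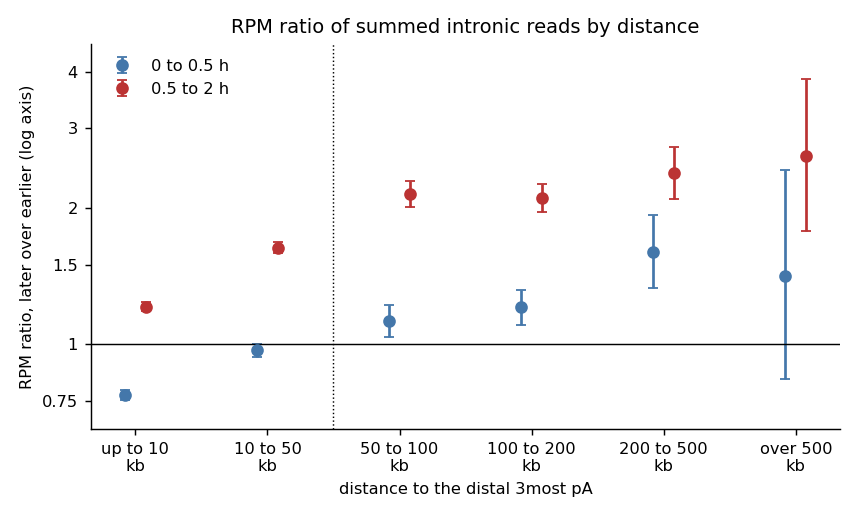
RPM ratio of the summed reads of intronic pAs, later over earlier library (y axis, log scale), by distance to the distal 3ʹ-most-exon pA (x axis, kb), for the window from 0 to 0.5 h and the window from 0.5 to 2 h. Bars are 95% intervals of counting error, the horizontal line marks a ratio of 1 and the dotted line the 50 kb border. The 0.5–2 h ratios are 1.21 and 1.63 below the border and between 2.10 and 2.60 above it.

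Genes differ in expression, so far-upstream and nearer intronic pAs were also compared within the 611 genes that had both kinds. In these genes the far-upstream pAs had 1438, 1860 and 3417 reads at 0, 0.5 and 2 h, and the nearer ones 2847, 2962 and 3354. Nearer intronic pAs thus had more reads than the far-upstream ones at 0 h and fewer at 2 h. The odds ratio for 0.5–2 h was 1.62 (1.504–1.75, Fisher's exact test, p = 6.50e-37) and that for 0–0.5 h was 1.24 (1.14–1.36, Fisher's exact test, p = 7.08e-07). Far-upstream RPM was higher at 2 h than at 0.5 h in 448 and lower in 120 of the 611 genes, and nearer intronic RPM was higher in 356 and lower in 186.

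The full-length isoforms of the same genes went the other way, in a comparison added after the data were seen. Summed over the 1259 genes, 3ʹ-most-exon pAs held 77360 RPM at 0 h, 72749 at 0.5 h and 60903 at 2 h, a ratio of 0.837 between 0.5 and 2 h. Genes with only nearer intronic pAs had a ratio of 0.992 and genes with no intronic pA 0.968. The odds ratios of the first against these were 0.844 (0.830–0.858, p = 1.57e-88, Fisher's exact test) and 0.865 (0.850–0.880, p = 1.90e-60, Fisher's exact test). For 0–0.5 h they were 0.896 (0.882–0.911, p = 7.95e-42, Fisher's exact test) and 0.979 (0.963–0.995, p = 0.0101, Fisher's exact test). Without the 10 most abundant genes of each kind, these early odds ratios were nearer to 1. They were 0.967 (0.948–0.986, p = 6.88e-04, Fisher's exact test) and 1.01 (0.990–1.03, p = 0.310, Fisher's exact test). The 0.5–2 h odds ratios were then 0.837 and 0.870. The kinds of gene were not matched for length.

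Each pA was then tested against the 3ʹ-most-exon reads of its gene, by a two-sided Fisher's exact test, and was called where p was under 0.05 and the share moved by over 5 percentage points. Between 0.5 and 2 h the share rose for 201 and fell for 24 of 1915 testable far-upstream pAs, 10.5% and 1.25%. Over all intronic pAs tested, 9.04% rose and 1.68% fell. After adjustment over all of these, 32 of the 1915 far-upstream pAs rose and 0 fell, where 94 of all 6960 intronic pAs (1.35%) rose. Between 0 and 0.5 h, 47 rose and 24 fell of 1173 testable far-upstream pAs, beside 4.33% and 2.16% of all intronic pAs, and 1 and 1 remained after adjustment. From 0 to 2 h, 230 rose and 15 fell of 1989, beside 9.44% and 0.972% of all. The share of called far-upstream pAs was thus close to that of intronic pAs in general in the 0–0.5 h window. It was only a little above it in the 0.5–2 h window, where 9.15% of the pAs at 10–50 kb rose. Against all other reads of the gene in place of the 3ʹ-most-exon reads, 138 rose and 60 fell of 2221 far-upstream pAs between 0.5 and 2 h. These were 6.21% and 2.70%, beside 6.34% and 2.78% of all intronic pAs, so that with this denominator falls were more frequent and the far-upstream pAs were called about as often as the rest.

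When all far-upstream reads of a gene were combined, 178 of 984 testable genes (18.1%) rose and 12 fell between 0.5 and 2 h. Over all combinations of gene and distance class, 13.7% rose and 1.75% fell. With adjusted p-values 51 genes rose and 0 fell, and 3.46% of all combinations rose. The 10–50 kb pAs were called higher in 14.3% and the pAs at up to 10 kb in 9.62% of their genes. Between 0 and 0.5 h, 40 of 673 genes rose and 18 fell, beside 5.55% and 2.68% of all combinations, and 1 gene each way remained with adjusted p-values.

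Calls rested on both sides of the comparison and on few reads. The 201 far-upstream pAs called higher in the 0.5–2 h window, in 150 genes, went from 207 to 1416 reads together. At 0.5 h, 167 of them had 0 reads, and 66 had 0 3ʹ-most-exon reads at 2 h. For 26 of the 201, intronic and full-length counts were above 0 at both times. Their median log2 RPM ratio (0.1 RPM added) was 1.71 for the intronic pA and -1.38 for the 3ʹ-most-exon pAs. The calls were made on these same reads, so the opposite signs follow in part from the selection. With at least 10 reads required in each library, 79 far-upstream pAs rose and 7 fell. The share over all intronic pAs was not counted at this minimum.

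The most abundant far-upstream pA was in BANP, which encodes a nuclear matrix-associated DNA-binding protein, at chr16:87986354 (hg19, plus strand), 124.6 kb from the gene end. It had 22 reads at 0 h, 95 at 0.5 h and 295 at 2 h, or 50.8, 189 and 673 RPM. The RPM ratio was 3.73 (2.33–6.23) in the 0–0.5 h window and 3.56 (2.81–4.53) in the 0.5–2 h window. BANP had 7, 0 and 0 3ʹ-most-exon reads, so its share rose from 75.9% to 100% by 0.5 h (adjusted p = 0.00943, Fisher's exact test) and could not rise further.

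The pA of FRMD4A, a scaffold protein gene of epithelial polarity, at chr10:13837955 (minus strand, 150.1 kb) had 54, 48 and 107 reads, or 125, 95.7 and 244 RPM. The 3ʹ-most-exon reads of the gene were 41, 204 and 116. Its share went from 56.8% to 19.0% and back to 48.0%, and both changes passed adjustment (adjusted p = 1.16e-07 and 1.71e-08, Fisher's exact test). The first change came with a higher number of full-length reads and a like number at the intronic pA, and the second with more reads at the intronic pA and fewer full-length reads.

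TTC17, a tetratricopeptide repeat protein gene, had 107, 175 and 75 reads (247, 349 and 171 RPM) at chr11:43423172, 93.3 kb from its end. Its RPM ratio was 1.41 (1.10–1.81) and then 0.491 (0.369–0.647), with 13, 8 and 12 3ʹ-most-exon reads. The share rose from 89.2% to 95.6% and fell to 86.2% (p = 0.0376 and 0.0108, Fisher's exact test), and neither change passed adjustment (adjusted p = 0.631 and 0.239, Fisher's exact test). Against all other reads of the gene the fall was not called (p = 0.0640, Fisher's exact test). At all 3 times this far-upstream pA had more reads than the 3ʹ-most exon of the gene.

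ASPH, which encodes an aspartyl beta-hydroxylase and shorter calcium-handling proteins of the endoplasmic reticulum, had 83, 22 and 54 reads (192, 43.8 and 123 RPM) at chr8:62537096, 123.4 kb from its end. The share fell from 93.3% to 68.8% and rose to 90.0% (p = 0.00121 and 0.0187, Fisher's exact test; adjusted p = 0.172 and 0.275). MACROD1, an ADP-ribose hydrolase gene, had 69, 35 and 28 reads (159, 69.7 and 63.9 RPM) at chr11:63916090, 150.1 kb from its end. It was lower after UV, and the share fell from 90.8% to 74.5% by 0.5 h (p = 0.0206, adjusted p = 0.510, Fisher's exact test), but not against all other reads of the gene (p = 0.247, Fisher's exact test).

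The remaining pAs among the 10 most abundant had 18–27 reads at 0 h, 36–49 at 0.5 h and 24–64 at 2 h. DCBLD2, a membrane receptor gene, had 23, 46 and 64 reads at chr3:98568230. CPT1A, which encodes the carnitine palmitoyltransferase of fatty acid import into mitochondria, had 24, 44 and 35 reads at chr11:68574648. CAST, which encodes the calpain inhibitor calpastatin, had 18, 39 and 40 reads at chr5:96052143. The shares of CPT1A (from 85.7% to 100%) and CAST (from 60.0% to 88.6%) rose by 0.5 h (p = 0.0199 and 0.00547, Fisher's exact test), but not after adjustment (adjusted p = 0.509 and 0.341, Fisher's exact test). FANCI, a gene of interstrand crosslink repair, had 27, 36 and 35 reads at chr15:89807878, and its share was 62.8%, 73.5% and 72.9% with no call. FRMD6, a gene upstream of the Hippo pathway, had 26, 49 and 24 reads at chr14:52046018 and no call either.

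**Figure D3:**
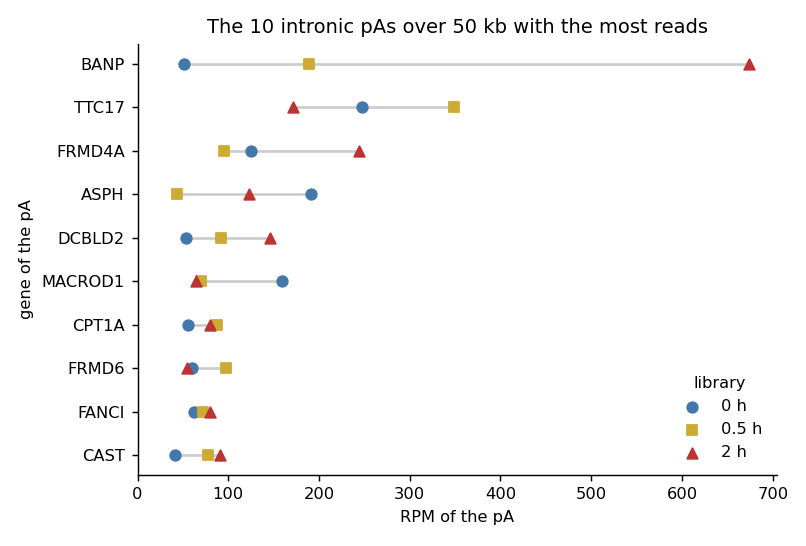
RPM (x axis) of the 10 far-upstream intronic pAs with the most reads over the 3 libraries (y axis, by gene). Circles are the 0 h, squares the 0.5 h and triangles the 2 h library, and grey lines join the lowest and highest value of a pA. BANP stands apart at 673 RPM at 2 h, TTC17 is highest at 0.5 h, and MACROD1 and ASPH are highest at 0 h.

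The largest rises of the share between 0.5 and 2 h, among called pAs with at least 20 reads of pA and 3ʹ-most exon in each library, were in IKBKB, HMGA2 and ASXL1. IKBKB encodes a catalytic subunit of the IκB kinase that activates NF-κB. Its pA at chr8:42131878 (plus strand, 63.3 kb) had 0, 1 and 19 reads (0, 1.99 and 43.4 RPM), and its 3ʹ-most exon 5, 19 and 6 reads. The share rose from 5% to 76.0% (adjusted p = 5.99e-04, Fisher's exact test), and the RPM ratio of 21.8 had a wide interval (3.46–904).

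ASXL1, which encodes a Polycomb-associated chromatin regulator, had 1, 3 and 22 reads at chr20:30958544 (plus strand, 68.6 kb), and 15, 28 and 13 3ʹ-most-exon reads. The share rose from 9.68% to 62.9% (adjusted p = 0.00203, Fisher's exact test) at an RPM ratio of 8.40 (2.52–43.8). COTL1, which encodes an actin-binding protein, had 0, 0 and 26 reads at chr16:84649609 (minus strand), at 50.4 kb only just inside the class. Its 3ʹ-most exon had 61, 64 and 30 reads, and the share rose from 0% to 46.4% (adjusted p = 3.59e-08, Fisher's exact test). With the 3 reads that a count of 0 allows put in its place, the pA was 9.93-fold higher at 2 h than at 0.5 h. Folds of this kind leave out the counting error of the other count.

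RERE, a transcriptional corepressor gene, had 0, 0 and 9 reads at chr1:8681664, 269.2 kb from its end (adjusted p = 0.0238, Fisher's exact test), and 26, 25 and 12 3ʹ-most-exon reads. PAM, which encodes the enzyme of peptide alpha-amidation, had 0, 0 and 9 reads at chr5:102276635 (adjusted p = 0.00432, Fisher's exact test), and 63, 89 and 35 3ʹ-most-exon reads. With 3 reads in place of 0, both pAs were 3.44-fold higher at 2 h than at 0.5 h. ITPR3, an inositol trisphosphate receptor gene, and ANTXR2, an anthrax toxin receptor gene, had 0, 0 and 5 reads each, and neither call passed adjustment (adjusted p = 0.0505 and 0.241, Fisher's exact test). ADAM10, which encodes a membrane protease that sheds cell surface proteins, had 25, 9 and 11 reads at chr15:58947442, and its share of 52.1%, 22.5% and 50% fell and rose (p = 0.00788 and 0.0455, adjusted p = 0.371 and 0.409, Fisher's exact test). Against all other reads of the gene its rise was not called (p = 0.0553, Fisher's exact test). In ADAM10 the RPM ratio of the 0.5–2 h window was 1.40 (0.528–3.82), and full-length reads went from 31 to 11.

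Of the pAs called lower in this window, those of TTC17 and DYNC1H1 met the read minimum. DYNC1H1, the gene of the dynein heavy chain, had 0, 4 and 0 reads at chr14:102432946 and 176, 72 and 135 3ʹ-most-exon reads (p = 0.0160, adjusted p = 0.267, Fisher's exact test). Against all other reads of the gene its change did not exceed 5 percentage points.

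Rises from 0 to 0.5 h were led by ASAP1, CAST, SCHIP1, MAPKAP1 and BANP. ASAP1, an Arf GTPase-activating protein gene, had 0, 10 and 1 reads at chr8:131266779 (minus strand, 201.7 kb), and its share of 0%, 41.7% and 5.26% rose and fell (p = 8.65e-04 and 0.0117, adjusted p = 0.140 and 0.241, Fisher's exact test). MAPKAP1, which encodes the SIN1 subunit of mTORC2, had 0, 8 and 13 reads at chr9:128263056, and SCHIP1 had 0, 7 and 0 reads at chr3:159504195. Of these 5 pAs, only that of BANP passed adjustment in this window.

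Falls by 0.5 h were seen in FRMD4A, RALY, ADAM10, HGF and MDM4. RALY, an hnRNP gene, had 23, 12 and 1 reads (53.1, 23.9 and 2.28 RPM) at chr20:32602763 (plus strand, 66.2 kb) and 23, 56 and 31 3ʹ-most-exon reads. Its share fell from 50% to 17.6% by 0.5 h (p = 3.74e-04, adjusted p = 0.0810, Fisher's exact test) and was 3.13% at 2 h, a fall from 0 to 2 h that passed adjustment (adjusted p = 8.57e-04, Fisher's exact test). HGF, the hepatocyte growth factor gene, had 21, 12 and 0 reads at chr7:81381341, with a share of 51.2%, 26.1% and 0%, and fell from 0 to 2 h as well (adjusted p = 0.0126, Fisher's exact test), whereas the combined share of its 3 far-upstream pAs (26, 20 and 8 reads) was not called. Against all other reads of HGF the share of this pA moved by -0.32 points by 0.5 h (p = 0.857, Fisher's exact test) and by -2.24 points from 0.5 to 2 h, and neither was called. MDM4, a p53 inhibitor gene, had 5, 0 and 0 reads at chr1:204489865 and 15, 25 and 4 3ʹ-most-exon reads (p = 0.0127, adjusted p = 0.437, Fisher's exact test). The pAs of RALY, HGF and MACROD1 had fewer reads in each later library, against the direction of the class. In MACROD1 the RPM ratio from 0.5 to 2 h was 0.917 (0.537–1.55). In HGF that from 0 to 0.5 h was 0.493 (0.221–1.05), and both intervals included 1.

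Of 661 far-upstream pAs testable in both windows, 9 rose and then fell, 4 fell and then rose, 1 fell in both and 0 rose in both. Of all 2804 intronic pAs testable in both windows, 1.46% rose and then fell, 0.785% fell and then rose, 0.0357% (1 pA, that of HGF) fell in both and 0.107% rose in both. The windows share the 0.5 h library, so a high or low count there enters both calls. Those that fell and then rose were in FRMD4A, ASPH, ADAM10 and PDS5A, a cohesin regulator gene, whose pA had 5, 5 and 5 reads while its 3ʹ-most exon had 2, 17 and 2. Pairs of rise and fall included FBRSL1 (0, 9 and 0 reads at its pA) and VPS53, a gene of retrograde vesicle tethering (5, 13 and 1 reads). The semaphorin gene SEMA3C had 0, 5 and 0 reads at its pA, and the semaphorin and VEGF co-receptor gene NRP1 had 0, 4 and 0.

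The gene with the most far-upstream pAs was HMGA2, which encodes an architectural chromatin protein and has very long introns. Its 30 pAs had 67, 72 and 66 reads together (155, 143 and 151 RPM), an RPM ratio of 1.05 (0.740–1.49) between 0.5 and 2 h. The sum stayed alike while the sites changed. At 0 h the pAs at chr12:66224827 and chr12:66222757 led with 20 and 14 reads, and they had 2 and 0 reads at 2 h. At 2 h the pAs at chr12:66247325 and chr12:66220020 led with 18 and 15 reads, and they had 4 and 0 reads at 0 h. The 3ʹ-most exon of HMGA2 had 28, 23 and 7 reads, and the combined far-upstream share rose from 75.8% to 90.4% in the 0.5–2 h window (Fisher's exact test, p = 0.0152, adjusted p = 0.160).

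ZNF438, a zinc finger protein gene, had 27 far-upstream pAs with 51, 49 and 105 reads together (118, 97.6 and 240 RPM). Its leading pA at chr10:31252000 (minus strand, 118.3 kb) had 16, 20 and 55 reads, at an RPM ratio of 3.15 (1.86–5.55) in the 0.5–2 h window. The pA at chr10:31276996 had 8, 7 and 0 reads. With 3 reads in place of 0, it was 2.04-fold lower at 2 h than at 0.5 h. The combined share rose from 76.6% to 96.3% (adjusted p = 0.00880, Fisher's exact test), with 18, 15 and 4 3ʹ-most-exon reads.

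ASAP1 had 15 far-upstream pAs with 1, 12 and 26 reads. At 0.5 h 2 of them had reads and at 2 h 13, and the combined share rose from 4.76% to 59.1% from 0 to 2 h (adjusted p = 0.00174, Fisher's exact test). NAV3, a neuron navigator gene, had 20 with 5, 10 and 30 reads and a share of 41.7%, 83.3% and 100% (adjusted p = 0.00189 from 0 to 2 h, Fisher's exact test). DLC1, a GTPase-activating protein gene, had 23 with 20, 25 and 38 reads and no call in any window. DNAJC1, an endoplasmic reticulum co-chaperone gene, had 12 with 7, 9 and 7 reads. Its combined share fell from 100% to 50% between 0.5 and 2 h (p = 0.0189, adjusted p = 0.184, Fisher's exact test), with 0 and 7 3ʹ-most-exon reads.

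The other genes with the most far-upstream pAs were FRMD4A (26), ASPH (21), FRMD6 (18) and MAPKAP1 (13). FRMD6 had 42, 75 and 55 reads together and ASPH 134, 76 and 95.

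**Figure D4:**
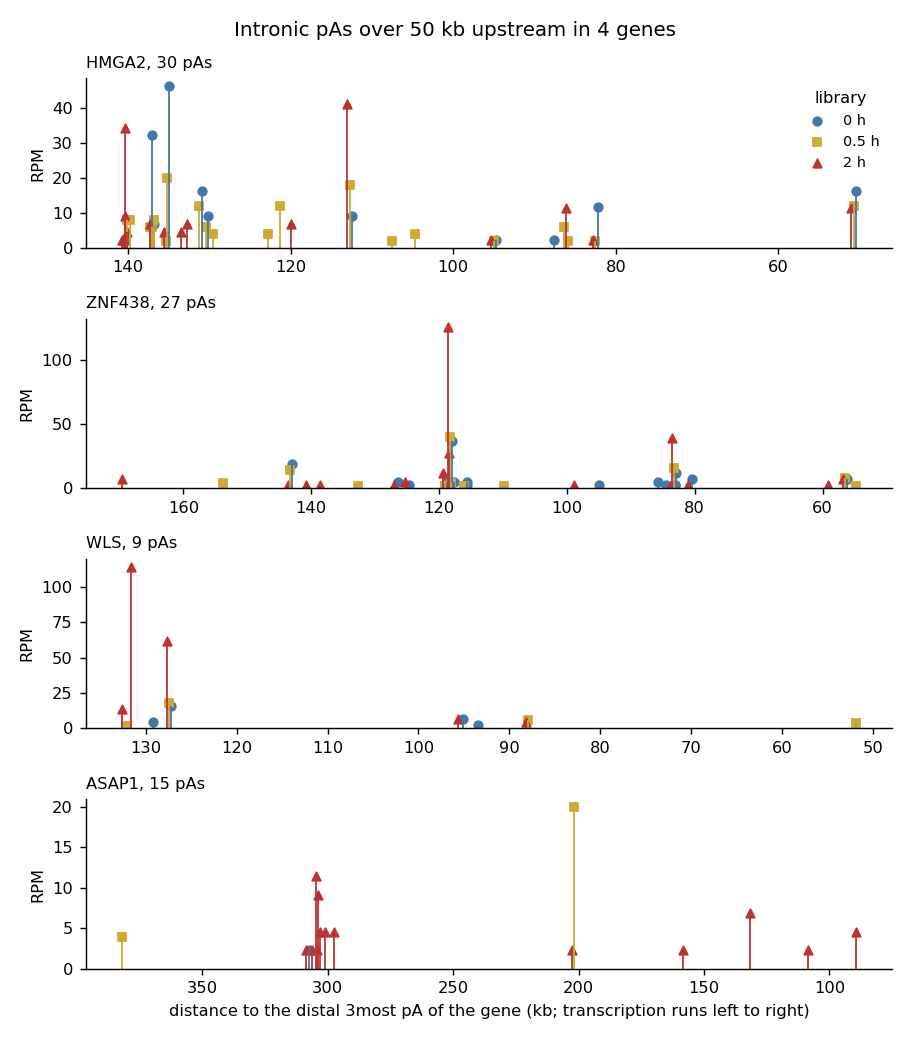
RPM (y axis) of each far-upstream intronic pA of HMGA2, ZNF438, WLS and ASAP1 by its distance to the distal 3ʹ-most-exon pA of the gene (x axis, kb, transcription from left to right). Blue circles are the 0 h, yellow squares the 0.5 h and red triangles the 2 h library, drawn slightly apart. In HMGA2 different pAs lead at 0 h and at 2 h, ZNF438 has its highest value at 2 h at the pA that also leads before, and 50 reads of WLS at 2 h lie at a pA with 0 reads before.

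Some genes with the largest rises in far-upstream RPM between 0.5 and 2 h lay outside the rule for named genes, since their 3ʹ-most exons had few reads, and were chosen after their values were seen. WLS, which encodes the carrier protein needed for Wnt secretion, had 13, 15 and 88 reads at 9 far-upstream pAs, the last of these 201 RPM, and 7, 10 and 0 3ʹ-most-exon reads. Of these, 50 reads at 2 h were at chr1:68695570 (minus strand, 131.4 kb), which had 0 reads before. The combined share rose from 60.0% to 100% (adjusted p = 1.41e-05, Fisher's exact test).

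ERC1, which encodes a scaffold protein of NF-κB signalling and vesicle release, had 2, 2 and 74 reads at 4 far-upstream pAs, 72 of them at 2 h at chr12:1278729 (plus strand, 326.4 kb). Its RPM ratio was 42.4 (11.3–356), and the share rose from 33.3% to 100% (adjusted p = 0.00115, Fisher's exact test) with 0, 4 and 0 3ʹ-most-exon reads. CREB5, which encodes a cAMP response element-binding factor, had 0, 0 and 39 reads, at chr7:28450377 and chr7:28451328, 411.5 and 410.5 kb from its end. With 3 reads in place of 0, CREB5 was 14.9-fold higher at 2 h than at 0.5 h. It had 0 3ʹ-most-exon reads in both of these libraries. EIF4G3, a translation initiation factor gene, had 9, 26 and 47 reads, of which 8, 20 and 39 were at chr1:21502193, 368.6 kb from its end. The RNA editing enzyme gene ADARB1 had 3, 2 and 29 reads, with 1, 0 and 0 3ʹ-most-exon reads. The full-length isoform of these genes was at or under 10 reads throughout. At 2 h it had 1 read in EIF4G3 and 0 in WLS, ERC1, CREB5 and ADARB1. Other pAs of these genes are not given here, so where all of their transcripts ended is not shown.

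SPTAN1, the gene of alpha-spectrin, was of another kind. It had 174, 226 and 291 3ʹ-most-exon reads, and its far-upstream pAs had 1, 1 and 28 reads. The share rose from 0.441% to 8.78% in the 0.5–2 h window (adjusted p = 4.98e-04, Fisher's exact test) while full-length reads did not drop.

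Far-upstream RPM was lower at 2 h than at 0.5 h in RUNX2, a transcription factor gene of bone formation, with 2, 23 and 4 reads and a ratio of 0.199 (0.0501–0.583). It was also lower in ADAMTSL1, with 8, 25 and 8 reads and a ratio of 0.367 (0.143–0.838). Neither gene was called on its share.

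The farthest pAs with reads in at least 2 libraries lay in genes that span very large regions. FHIT, which spans a common fragile site, had 0, 1 and 4 reads at chr3:61104459 (minus strand), 1369 kb from its end, and 1, 0 and 0 3ʹ-most-exon reads. IMMP2L, a mitochondrial inner membrane protease gene, had 0, 1 and 6 reads at chr7:111092644 (789.4 kb). TRAPPC9, a gene of vesicle tethering, had 2, 1 and 4 reads at chr8:141466600 (724.0 kb), and its share rose from 10.0% to 80.0% between 0.5 and 2 h (p = 0.0170, adjusted p = 0.270, Fisher's exact test), but not against all other reads of the gene (p = 0.323, Fisher's exact test). VPS13B had 3, 0 and 9 reads at chr8:100174302 (713.6 kb), with 5, 0 and 0 3ʹ-most-exon reads. LRBA had 2, 0 and 3 reads at chr4:151761692 (576.1 kb). At these 5 pAs the highest number of reads was in the 2 h library, at 3 to 9 reads.

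By function, the genes with far-upstream pAs were described through lists from general knowledge, beside the 178 of 984 (18.1%) of all such genes whose combined share rose between 0.5 and 2 h and their median change of 14.3 percentage points. Chromatin regulators and transcription cofactors rose in 11 of 33 testable genes (33.3%), with a median change of 33.3 points, and none fell. Besides ASXL1 and RERE, these included BCOR, a Polycomb-associated corepressor gene (1, 0 and 6 far-upstream reads, 9, 9 and 1 3ʹ-most-exon reads, adjusted p = 0.0273, Fisher's exact test). TBL1XR1, a gene of the NCoR corepressor complex, had 0, 0 and 10 far-upstream reads and 4, 12 and 8 3ʹ-most-exon reads (adjusted p = 0.0426, Fisher's exact test).

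DNA-binding transcription factors rose in 6 of 22 testable genes (27.3%), with a median change of 38.7 points. E2F3, a cell cycle activator, had 2, 0 and 7 far-upstream reads, and its 3ʹ-most exon went from 11 and 15 reads to 0 (adjusted p = 8.37e-04, Fisher's exact test). RUNX1, a regulator of blood cell formation, had 1, 0 and 14 far-upstream reads over 9 pAs and 13, 6 and 0 3ʹ-most-exon reads (adjusted p = 0.00235, Fisher's exact test). NRF1, which drives nuclear genes of mitochondrial function, had 0, 0 and 8 reads at its pA at chr7:129262297 and 13, 21 and 4 3ʹ-most-exon reads (adjusted p = 0.00288, Fisher's exact test). ZEB1, a repressor of epithelial genes, had 0, 1 and 13 far-upstream reads and 10, 14 and 8 3ʹ-most-exon reads (adjusted p = 0.0372, Fisher's exact test).

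Genes of cohesin, condensin and nuclear architecture rose in 3 of 10. PDS5A had 6, 5 and 16 far-upstream and 2, 17 and 2 3ʹ-most-exon reads (adjusted p = 0.00277, Fisher's exact test), STAG1, a cohesin subunit, had 7, 9 and 22 far-upstream reads (adjusted p = 0.196, Fisher's exact test), and the nuclear pore gene NUP153 had 0, 0 and 4 (adjusted p = 0.115, Fisher's exact test). Ubiquitin ligases and deubiquitinases rose in 6 of 28, led by SPSB1 with 0, 2 and 6 far-upstream and 64, 79 and 11 3ʹ-most-exon reads (adjusted p = 0.0115, Fisher's exact test). RNF220 and ARIH1 were called as well, with adjusted p of 0.211 and 0.219 (Fisher's exact test).

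Kinases, phosphatases and small GTPase regulators rose in 8 of 64 (12.5%). Besides FRMD4A, they included EGFR, the epidermal growth factor receptor, with 0, 0 and 11 far-upstream reads over 4 pAs and 17, 10 and 3 3ʹ-most-exon reads (adjusted p = 0.00772, Fisher's exact test). STK24, a serine/threonine kinase gene, had 0, 0 and 3 far-upstream reads and 49, 63 and 12 3ʹ-most-exon reads (adjusted p = 0.0983, Fisher's exact test). Cytoskeleton, adhesion and polarity genes rose in 6 of 45 and fell in 1, with SPTAN1 and ITGB1, the beta-1 integrin gene, the strongest. ITGB1 had 2, 4 and 13 far-upstream reads and 339, 286 and 109 3ʹ-most-exon reads, and its share rose from 1.38% to 10.7% (adjusted p = 0.00402, Fisher's exact test). The integrin gene ITGAV and the adaptor gene NCK1 were called on 5 and 3 far-upstream reads at 2 h (adjusted p = 0.0720 and 0.118, Fisher's exact test).

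Among 18 testable genes of DNA damage response and repair, SMC5 alone rose (5.56%), on 0, 0 and 3 far-upstream reads and 4, 9 and 1 3ʹ-most-exon reads (p = 0.0140, adjusted p = 0.157, Fisher's exact test). Splicing and other RNA-binding protein genes rose in 3 of 18: STAU1 with 0, 0 and 13 far-upstream reads, IGF2BP3 with 0, 0 and 4 and PUM2 with 0, 0 and 4, none after adjustment (adjusted p = 0.0850, 0.218 and 0.229, Fisher's exact test). Among cleavage and polyadenylation factors 1 of 5 rose, SCAF8, with 0, 3 and 3 far-upstream reads and 31, 32 and 4 3ʹ-most-exon reads (p = 0.0478, adjusted p = 0.284, Fisher's exact test). The only p53 target gene that could be tested in this window was not called. These counts are descriptions of small lists, and no test compared a list with other genes.

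**Figure D5:**
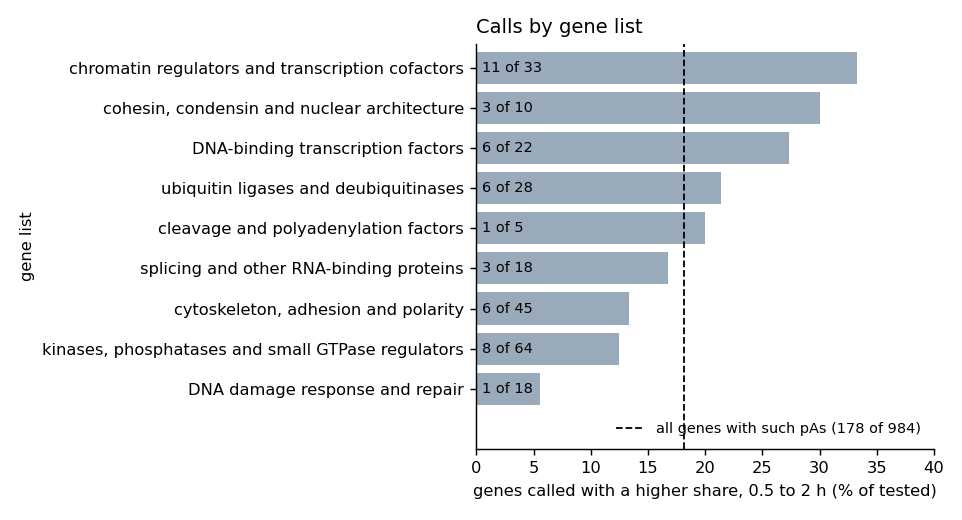
Percentage of testable genes whose combined far-upstream share was called higher between 0.5 and 2 h (x axis), by gene list (y axis), with the called and tested numbers in each bar. The dashed line marks all genes with far-upstream pAs, 178 of 984. The bar of chromatin regulators reaches 33.3% and that of DNA damage response genes 5.56%, on 33 and 18 genes.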

How the data were processed

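Nuclear RNA of RKO cells at 0, 0.5 and 2 h was sequenced by 3ʹREADS, with 1 library each. The authors aligned the reads with Bowtie2 and used those that carried 2 or more As not found in the genome (the submitters also name CASAVA and hg19, and tool versions are not given in the sources used here). How reads were clustered into pAs is not stated. The deposited values are RPM, scaled by the authors to the total of each library. All values lay within 4.00e-11 of a whole count, so reads were recovered, and a count test was run on them in place of a test on log values.

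Distances were taken from the deposited hg19 positions. A pA or a gene was testable with a far-upstream read in either library and any read of the comparison in both. p-values were adjusted (Benjamini-Hochberg) over all intronic pAs tested, or over all combinations of gene and distance class, which departs from the plan to adjust over the genes of 1 class. Ratios of class sums have exact conditional 95% intervals, and odds ratios of 3ʹ-most-exon sums have Woolf intervals. pAs of a gene share its 3ʹ-most-exon reads, so their calls are not independent. RPM ratios on the log2 scale had 0.1 RPM added. The test was run on simulated data with known changes before use.

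The distance rule uses positions only, but it and the gene lists, and so the members, were chosen with earlier results of these data known. The comparison of 3ʹ-most-exon reads between kinds of gene was added after the data were seen. Genes were named by rule: the 10 pAs with most reads, the largest called changes (at least 20 reads in each library, 1 pA per gene), the 10 genes with most members, the 5 farthest pAs with reads in at least 2 libraries, genes the study names, and, per list, at most 4 called genes, of which 2 are not reported here. Alternatives covered thresholds, adjustment, depth, the denominator, the distance rule and abundant pAs. Sequences around the pAs are not analysed here, since no genome of this build was at hand. The software was Python 3.11.15 with scipy 1.17.1, numpy 2.4.6, matplotlib 3.10.9 and pandas 2.3.3.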

Additional observations from a re-analysis of the deposited data

How the results depend on the processing

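No paired analysis was possible because each time point has 1 library, and leaving out a replicate was not possible for the same reason. Counts of called far-upstream pAs depended on the settings. With adjusted p-values, 1 rose and 1 fell from 0 to 0.5 h, 32 and 0 from 0.5 to 2 h, and 44 and 2 from 0 to 2 h. Where each library had to have 10 or more reads, the numbers were 17 and 11, 79 and 7, and 90 and 8. Against all other reads of the gene, 138 rose and 60 fell from 0.5 to 2 h, and 144 rose and 35 fell from 0 to 2 h. At distances over 100 kb, 25, 93 and 111 rose in these windows and 7 fell from 0 to 2 h. At distances over 30 kb, 80 rose and 39 fell, then 313 rose and 39 fell, and 354 rose from 0 to 2 h. For the read minimum and the other distances, the share of all intronic pAs called was not counted. Those numbers thus do not compare the class with other intronic pAs.

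The summed RPM ratio stayed above 1 in all of these. It was 2.33 (0.5–2 h) and 2.85 (0–2 h) without the 10 most abundant pAs, and 1.29 (0–0.5 h) and 2.06 (0.5–2 h) for pAs with 2 or more reads in a library. Over 100 kb it was 1.28 from 0 to 0.5 h and 2.79 from 0 to 2 h, and over 30 kb it was 1.08, 2.05 and 2.21. At least 2 reads were found at 335, 525 and 1005 pAs. The median log2 RPM ratio of pAs called higher was 5.93 (0–0.5 h) and 6.12 (0.5–2 h) with 0.1 RPM added. It was 2.80 and 2.97 with 1 RPM added, and 2.00 and 2.48 with 2 RPM added.

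The odds ratio of 3ʹ-most-exon reads against genes with no intronic pA reversed to 1.01 from 0 to 0.5 h without the 10 most abundant genes of each kind, and both this comparison and the alternative were chosen after seeing the data. The cause of these changes was not tested beyond the smaller or larger number of pAs that each setting takes. Of the called changes of single named pAs, 23 of 32 no longer passed with adjusted p-values, 9 against all other reads of the gene and 5 in libraries thinned to the smallest. Depth limits the single pAs, of which 45.1% had 1 read in all, and no difference has a replicate check.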
